A study of Sus scrofa with 6 samples.

Results

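Solute carriers are membrane proteins that move sugars, amino acids, ions, vitamins, nucleotides and metabolites across cell and organelle membranes, either down a gradient or coupled to the movement of sodium, protons or another solute. Their gene symbols give the family and the member, so that SLC2A3 is a glucose transporter of the SLC2 family and SLC25A39 a carrier of the SLC25 family, most of which sit in the inner mitochondrial membrane. In an early embryo they set the supply of glucose and amino acids, the salt and water balance of cells, and the traffic of nucleotide sugars into the Golgi, where glycoproteins are built.

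The rows described here are the transcripts whose deposited protein match contains the words solute carrier and which had at least 100 uniquely mapped reads summed over the 6 libraries. There were 75 such rows among 20523 in the table, and 53 further rows with that description fell below the read limit. The read sum is therefore a condition of the choice and not a finding, while the difference between genotypes was not used. The lowest rows inside the limit were SLC25A48 and SLC22A9 with 100 reads each, and the highest rows outside it were SLC41A2 with 91 reads and SLC2A4 with 80. The 75 rows stood for 72 genes, since SLC12A4 had 2 rows and SLC23A2 had 3. They are called row 2 and row 3 below after the row with the most reads. One of the 72, RSC1A1, encodes a regulator of a sodium-glucose cotransporter and is not a transporter itself. The description of 23 rows carries the words like, partial or low quality, so their gene names are best matches.

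The study asked how VRTN, a gene tied to the number of thoracic vertebrae, acts in development. It measured RNA of Large White pig embryos between 17.5 and 18 days post coitum. Of the 6 libraries, 3 came from wild-type embryos (WT, genotype qq) and 3 from embryos homozygous for the 2 quantitative trait nucleotides of VRTN (QQ), with 1 embryo per library. The labels name no treatment or transgene, and extra-embryonic tissue was taken off for genotyping. Both groups share breed and stage. Dams and litters are not labelled, and p-values therefore reflect only the spread among these 6 embryos. Whole-embryo RNA mixes all tissues, and fewer cells of a type and less RNA per cell cannot be told apart.

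Each library held 12.2 M to 13.5 M uniquely mapped reads (M for mega). Markers of the embryo body were present, with DLL1 at a mean of 12.1 RPKM, MEOX1 at 22.8 and SOX2 at 32.1 (RPKM is the read count scaled to transcript length and library total). On the first principal component WT replicate 3 lay at -61.7, far from the rest, which lay between -9.12 and 30. Markers of other tissues varied between single embryos. The summed level of 14 yolk sac endoderm markers was 403, 144 and 715 CPM (counts scaled to the TMM-adjusted library total) in WT replicates 1 to 3 and 379, 128 and 1250 CPM in QQ replicates 1 to 3. The sum of 11 erythroid markers was 186, 88.6 and 95.1 CPM in WT and 93.6, 57.8 and 117 CPM in QQ libraries. The 9 trophoblast markers summed to between 199 and 302 CPM, and one of them, IFNG, ranged from 1 read in QQ replicate 3 to 1165 reads in QQ replicate 1. Most of that sum came from HAND1, CDX2 and GATA3, with 10027, 3228 and 3058 reads over all libraries. ELF5, CYP11A1 and CYP19A1 had only 45, 64 and 14 reads, so the sum says little about them. No marker with a row was at 0 in all libraries. ALAS2 and APOA4 were at 0 in QQ replicate 2 and CYP19A1 was at 0 in WT replicates 2 and 3.

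The most abundant solute carrier was SLC2A3, the high-affinity glucose transporter GLUT3. It took 50.5% to 66.1% of the reads of all 75 rows, depending on the library. Per length, its mean of 724 RPKM was 5.57 times that of SLC2A1 (GLUT1, the general glucose transporter, 130 RPKM) and placed it at rank 116 of the 20523 rows. SLC25A39, a carrier that brings glutathione into mitochondria, followed with 112 RPKM. Those 3 rows alone exceeded 100 RPKM. Another 24 rows lay between 10 and 100 RPKM, 40 between 1 and 10, and 8 under 1 RPKM. The median over the 75 rows was 4.58 RPKM, and over all 13957 rows with enough reads to be tested it was 9.90 RPKM.

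**Figure D1:**
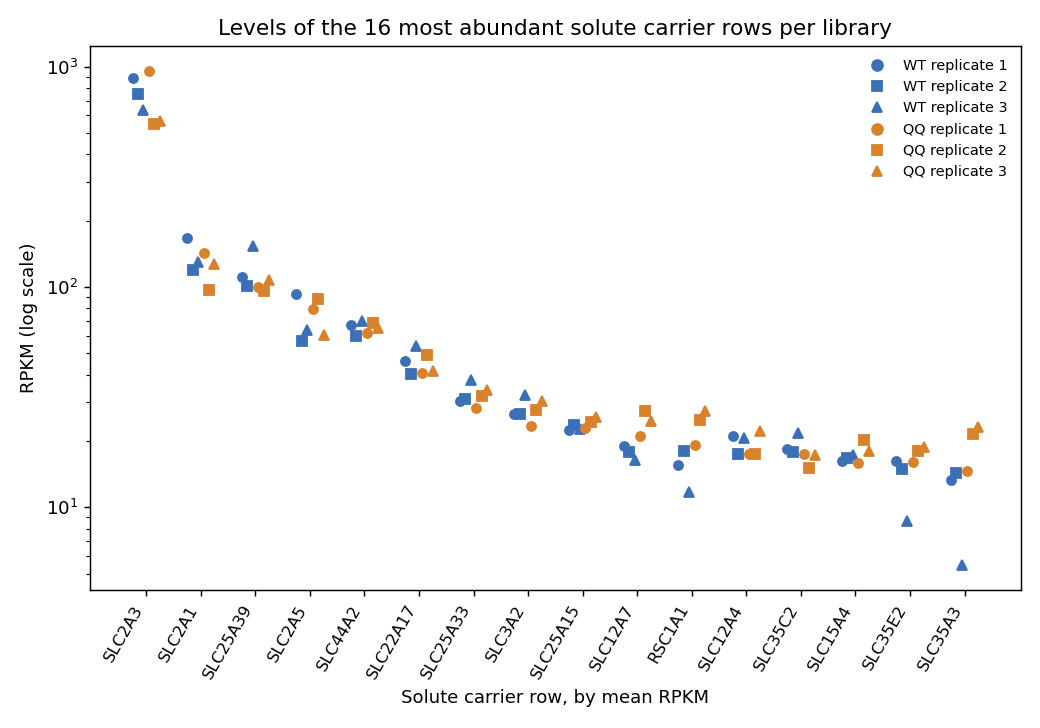
RPKM on a log scale (vertical axis) of the 16 solute carrier rows with the highest mean, ordered by mean (horizontal axis), with 1 point per library, blue for WT and orange for QQ. SLC2A3 lies between 548 and 958 RPKM in every library, above all points of the next row, SLC2A1, which lie between 96.9 and 166 RPKM.

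No solute carrier row passed edgeR's quasi-likelihood test with Benjamini-Hochberg adjustment at 0.05, in either direction, and the smallest adjusted p was 0.233. The same was true of all tested rows, of which 0% were called. All 75 rows had enough reads to be tested. At an unadjusted p under 0.05 in edgeR, 13 rows (17.3%) had higher values in QQ embryos, where 11.0% of all tested rows did, and 3 rows (4%) had lower values, where 9.30% of all rows did. Groups did not overlap, with every QQ library above every WT library in RPKM, in 18 rows (24.0%), against 18.8% of all tested rows. In 2 rows (2.67%), against 9.07% of all, every QQ library lay below every WT library. RPKM carries no TMM factor, while the edgeR log2 fold changes use it. The factors were 0.933 for WT replicate 3, 1.06 for QQ replicate 2 and 1.05 for QQ replicate 3. Relative to TMM scaling, RPKM therefore sets these QQ libraries higher and WT replicate 3 lower. This leans the counts of separate groups toward higher values in QQ embryos, also over all tested rows. Overlap after TMM scaling was not tested. Groups called separate or apart below are so in RPKM only, and narrow separations need not hold after that scaling. A positive log2 fold change was found in 43 rows (57.3%, against 49.7% of all) and a negative one in 32 rows (42.7%, against 50.3%). By each of these counts the share of solute carriers with higher values lay above that of the whole table, and the share with lower values lay below it. No test of the list was made, so no conclusion is drawn from these gaps. DESeq2 called 0 of the 75 rows, and gave 6 of them no adjusted p, where it called 0.738% of all tested rows as higher and 0.0573% as lower. Only limma with array weights, a fit that gives less weight to libraries that stand apart, made calls: 8 rows higher (10.7%, against 7.73% of all rows) and 0 lower (against 1.74%). That fit also uses RPKM without TMM factors, so the lean toward higher values in QQ embryos holds for it too.

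The log2 fold changes of the 75 rows, QQ against WT, ran from -0.66 to 1.49 with a median of 0.13, beside a median of -0.0028 over all tested rows. The median rested in part on rows with few reads and on repeated rows. It was 0.0002 among rows with at least 500 reads and 0.058 with 1 row per gene. Of the 13 rows with higher values at an unadjusted p under 0.05, 10 had their lowest level in WT replicate 3. That library was lowest in 38.7% of the 75 rows and 41.4% of all tested rows, whatever their direction. Rows picked for higher QQ values tend to be lowest in a WT library, so these shares are not a like comparison. The 3 rows with lower values all had their highest level in WT replicate 3, and the same limit holds. That library was highest in 21.3% of the 75 rows and 25.3% of all tested rows. Shares among all rows picked in the same way were not computed. Without WT replicate 3, edgeR gave an unadjusted p under 0.05 to 12 rows with higher and 2 with lower values, against 8.55% and 5.15% of all rows. Without QQ replicate 3 there were 5 and 3, against 5.02% and 2.70% of all rows. Without QQ replicate 2 there were 9 and 1, against 5.56% and 3.05%, and without WT replicate 2 there were 11 and 6, against 14.7% and 11.0%. Rows whose groups lay apart numbered 20 higher (26.7%) and 5 lower (6.67%) without WT replicate 3, against 21.2% and 10.8% of all rows.

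**Figure D2:**
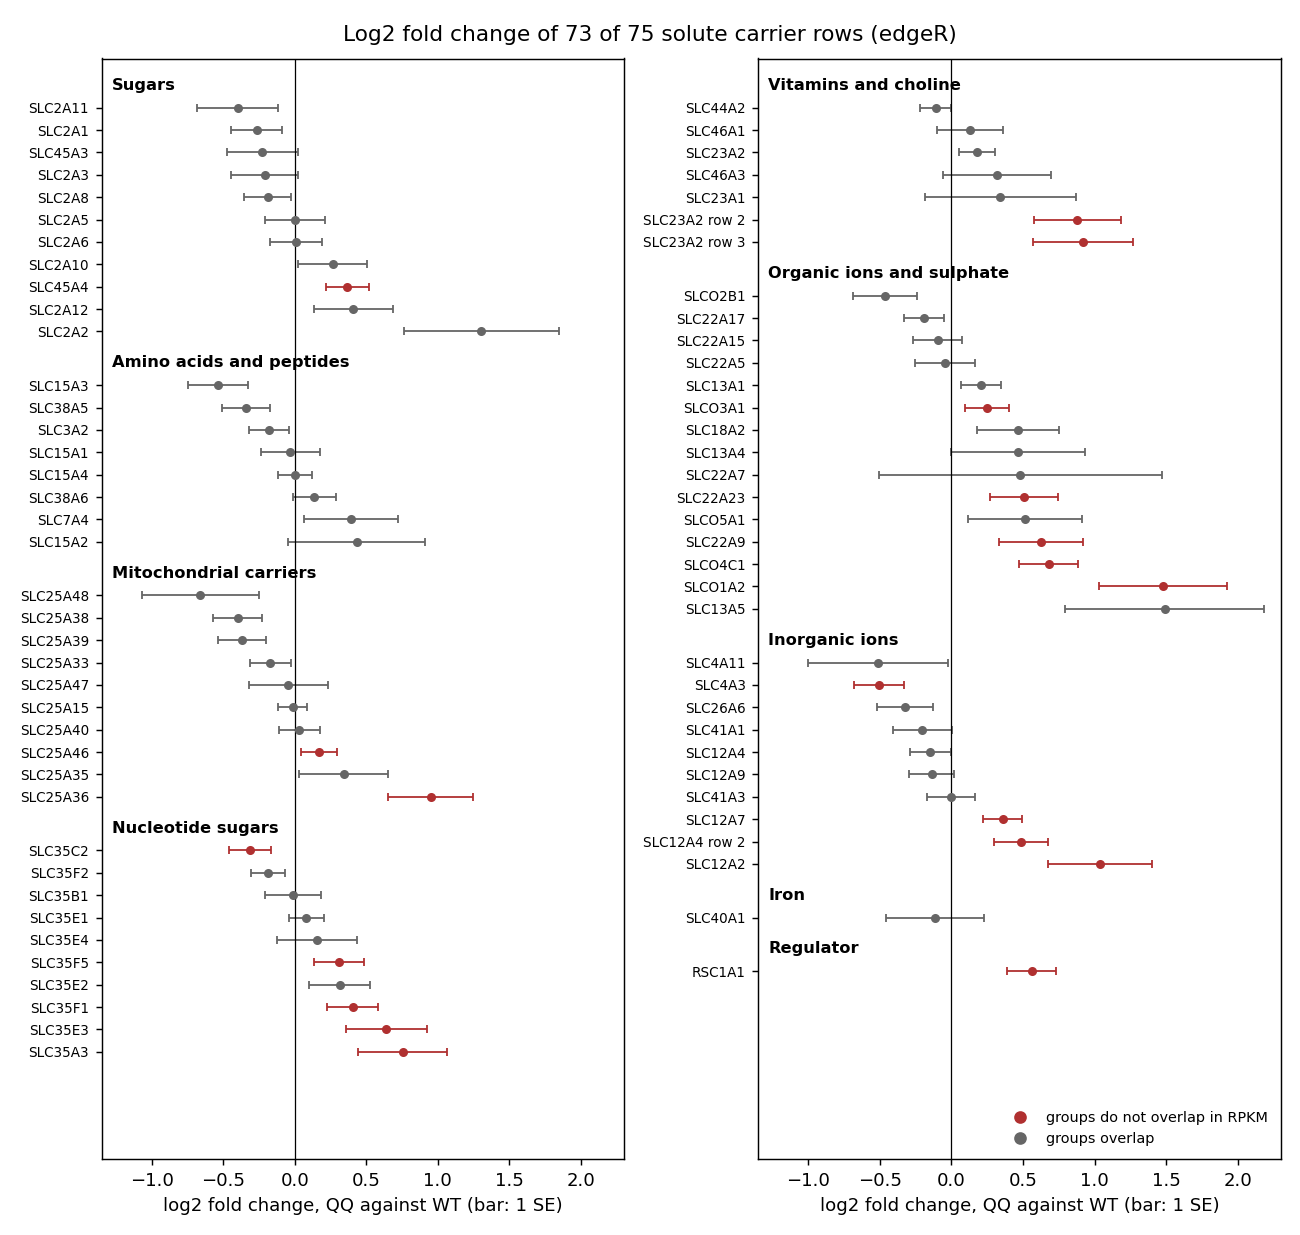
Log2 fold change of QQ against WT from edgeR (horizontal axis, bars are 1 standard error) for 73 of the 75 rows, grouped by what the family carries, with red points for rows whose groups do not overlap in RPKM. The points run from -0.66 for SLC25A48 to 1.49 for SLC13A5, and SLCO1A2, SLC13A5, SLC2A2 and SLC12A2 lie above 1.

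The transporters of sugars comprised 11 rows, 6 with a positive and 5 with a negative log2 fold change (median 0.002). SLC2A3 stood at 884, 751 and 637 RPKM in WT replicates 1 to 3 and at 958, 548 and 568 RPKM in QQ replicates 1 to 3. The highest library of all was QQ replicate 1 and the lowest were the other QQ libraries, so the groups overlapped widely. Its log2 fold change was -0.21 ± 0.23 (SE, edgeR adjusted p = 0.600), and leaving out 1 library moved it between -0.57 (QQ replicate 1) and -0.050 (QQ replicate 2). SLC2A1 was at 166, 119 and 130 RPKM in WT and 142, 96.9 and 127 RPKM in QQ libraries, with a log2 fold change of -0.27 ± 0.18, which ran from -0.43 without QQ replicate 1 to -0.11 without QQ replicate 2. QQ replicate 2 was lowest for both glucose transporters. Next in level among the sugar transporters, a short row of 461 bp matched to the fructose transporter SLC2A5, had 73.5 RPKM. Its identity rests on a partial match, and its log2 fold change was 0.002 ± 0.21.

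Among the less abundant sugar transporters, SLC45A4, which belongs to a family of proton-coupled sugar transporters, had groups that lay apart. It was at 5.44, 5.53 and 4.72 RPKM in WT and 6.24, 7.31 and 8.11 RPKM in QQ libraries (log2 fold change 0.37 ± 0.15, edgeR adjusted p = 0.233). SLC2A2, the low-affinity glucose transporter GLUT2 of liver, gut and pancreas, had the largest log2 fold change of the group, 1.31 ± 0.54, which was 0.56 without QQ replicate 3. Its level was 1.64, 0.778 and 0.702 RPKM in WT and 2.14, 1.06 and 5.05 RPKM in QQ libraries, so QQ replicate 3 alone lay far above the rest and the groups overlapped. SLC2A6, SLC2A8, SLC2A10, SLC2A11, SLC2A12 and SLC45A3 had means between 1.64 and 5.92 RPKM and log2 fold changes between -0.40 and 0.41. RSC1A1, which lowers the amount of the cotransporter SGLT1 at the membrane, was at 15.6, 17.9 and 11.7 RPKM in WT and 19.1, 24.9 and 27.2 RPKM in QQ libraries. Each QQ library was above each WT library, with a log2 fold change of 0.56 ± 0.17 that was 0.43 without WT replicate 3.

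Amino acid and peptide transporters made up 8 rows. The log2 fold changes had a median of -0.014, and in no row did the groups lie apart. SLC3A2, the heavy chain CD98 that pairs with several light-chain amino acid transporters, led the group at 26.5, 26.6 and 32.3 RPKM in WT and 23.3, 27.6 and 30.2 RPKM in QQ libraries. Its log2 fold change was -0.18 ± 0.14. SLC15A4, a lysosomal transporter of histidine and peptides, averaged 16.7 ± 0.485 RPKM over the WT and 18.0 ± 2.13 RPKM over the QQ libraries (SD, n = 3), a log2 fold change of 0.004 ± 0.12. Its relative SLC15A3 was at 7.40, 6.14 and 10.4 RPKM in WT and 5.63, 6.91 and 5.23 RPKM in QQ libraries. The log2 fold change of SLC15A3 was -0.53 ± 0.21 with all libraries and -0.27 without WT replicate 3, where it was highest. The glutamine transporter SLC38A5 had -0.34 ± 0.17, and it too was highest in WT replicate 3. The rows SLC38A6 (0.14 ± 0.15) and SLC7A4 (0.39 ± 0.33), had overlapping groups. The intestinal peptide transporter SLC15A1 and the kidney form SLC15A2 were low, at means of 1.61 and 0.555 RPKM. SLC15A2 was highest in QQ replicate 1, at 1.10 RPKM against 0.286 to 0.616 RPKM in the other libraries.

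The mitochondrial carrier family SLC25 had 11 rows, 4 with positive and 7 with negative log2 fold changes (median -0.044). SLC25A39 was at 111, 101 and 153 RPKM in WT and 99.8, 95.7 and 108 RPKM in QQ libraries. The groups overlapped and WT replicate 3 was the highest by far. The log2 fold change of SLC25A39 was -0.37 ± 0.17 with all libraries and -0.14 without WT replicate 3. Its paralog SLC25A40, thought to do the same work, had 11.3 RPKM and 0.03 ± 0.14. SLC25A38, which supplies glycine for haem synthesis, stood at 9.85, 10.2 and 11.7 RPKM in WT and 7.95, 7.63 and 10.2 RPKM in QQ libraries (log2 fold change -0.40 ± 0.17, edgeR adjusted p = 0.240). All 10 erythroid markers tested had negative log2 fold changes, and their median was -0.60. Their part in the values of SLC25A38 was not tested. The library highest in erythroid markers was WT replicate 1, while SLC25A38 and SLC25A39 were highest in WT replicate 3.

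The carriers of pyrimidine nucleotides SLC25A33 and SLC25A36 differed in level and in direction. SLC25A33 averaged 33.0 ± 3.99 RPKM over the WT and 31.5 ± 3.08 RPKM over the QQ libraries (SD, n = 3), a log2 fold change of -0.17 ± 0.14. SLC25A36 was at 1.73, 1.88 and 0.897 RPKM in WT and 3.00, 3.56 and 2.68 RPKM in QQ libraries, a log2 fold change of 0.95 ± 0.30 (edgeR adjusted p = 0.233). All QQ libraries of SLC25A36 lay above all WT libraries, but its reads covered only 14.5% of the row's 1160 bp. Without WT replicate 3 its log2 fold change was 0.70. The difference between the 2 carriers was not tested. The ornithine carrier SLC25A15, which serves the urea cycle, was among the steadiest rows, with 22.3 to 23.7 RPKM in WT and 22.8 to 25.7 RPKM in QQ libraries and a log2 fold change of -0.01 ± 0.10. SLC25A46, an outer-membrane protein involved in mitochondrial shape, had groups that lay apart by a narrow margin, with 10.2 to 14.3 RPKM in WT and 14.4 to 15.2 RPKM in QQ libraries (0.17 ± 0.13). SLC25A47 (-0.04 ± 0.27), SLC25A35 (0.34 ± 0.31) and SLC25A48 (-0.66 ± 0.41) had 8 to 64 reads per library and overlapping groups.

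Nucleotide-sugar transporters and their relatives, the SLC35 family, had separate groups in 5 of 10 rows. QQ embryos had the higher values in 4 of them (18.8% of all tested rows had such groups) and the lower values in 1 (9.07% of all), and the median log2 fold change of the 10 rows was 0.23. SLC35A3, which carries UDP-N-acetylglucosamine into the Golgi, was at 13.3, 14.3 and 5.47 RPKM in WT and 14.6, 21.5 and 23.2 RPKM in QQ libraries. The margin between QQ replicate 1 and WT replicate 2 was small, and the log2 fold change of 0.75 ± 0.31 became 0.44 without WT replicate 3. SLC35F1 stood at 9.46, 10.6 and 6.57 RPKM in WT and 10.7, 12.7 and 14.3 RPKM in QQ libraries (0.40 ± 0.18). SLC35E3 stood at 4.28, 6.62 and 2.72 RPKM in WT and 6.82, 8.33 and 7.45 RPKM in QQ libraries (0.64 ± 0.29). Without WT replicate 3 the log2 fold change was 0.24 for SLC35F1 and 0.39 for SLC35E3, and without WT replicate 2 it was 1.00 for SLC35E3. In SLC35A3, SLC35F1 and SLC35E3 WT replicate 3 was the lowest library, and the same held for SLC35F5 (0.31 ± 0.18) and SLC35E2 (0.31 ± 0.21). SLC35E2 became 0.10 without that library.

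SLC35C2, a Golgi protein linked to the fucosylation of Notch, went the other way. It was at 18.3, 17.8 and 21.7 RPKM in WT and 17.4, 15.1 and 17.3 RPKM in QQ libraries, so every QQ value was below every WT value. Its log2 fold change was -0.31 ± 0.15 (edgeR adjusted p = 0.260), and -0.19 without WT replicate 3, where it was highest. SLC35B1, SLC35E1, SLC35E4 and SLC35F2 had log2 fold changes between -0.19 and 0.16.

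**Figure D3:**
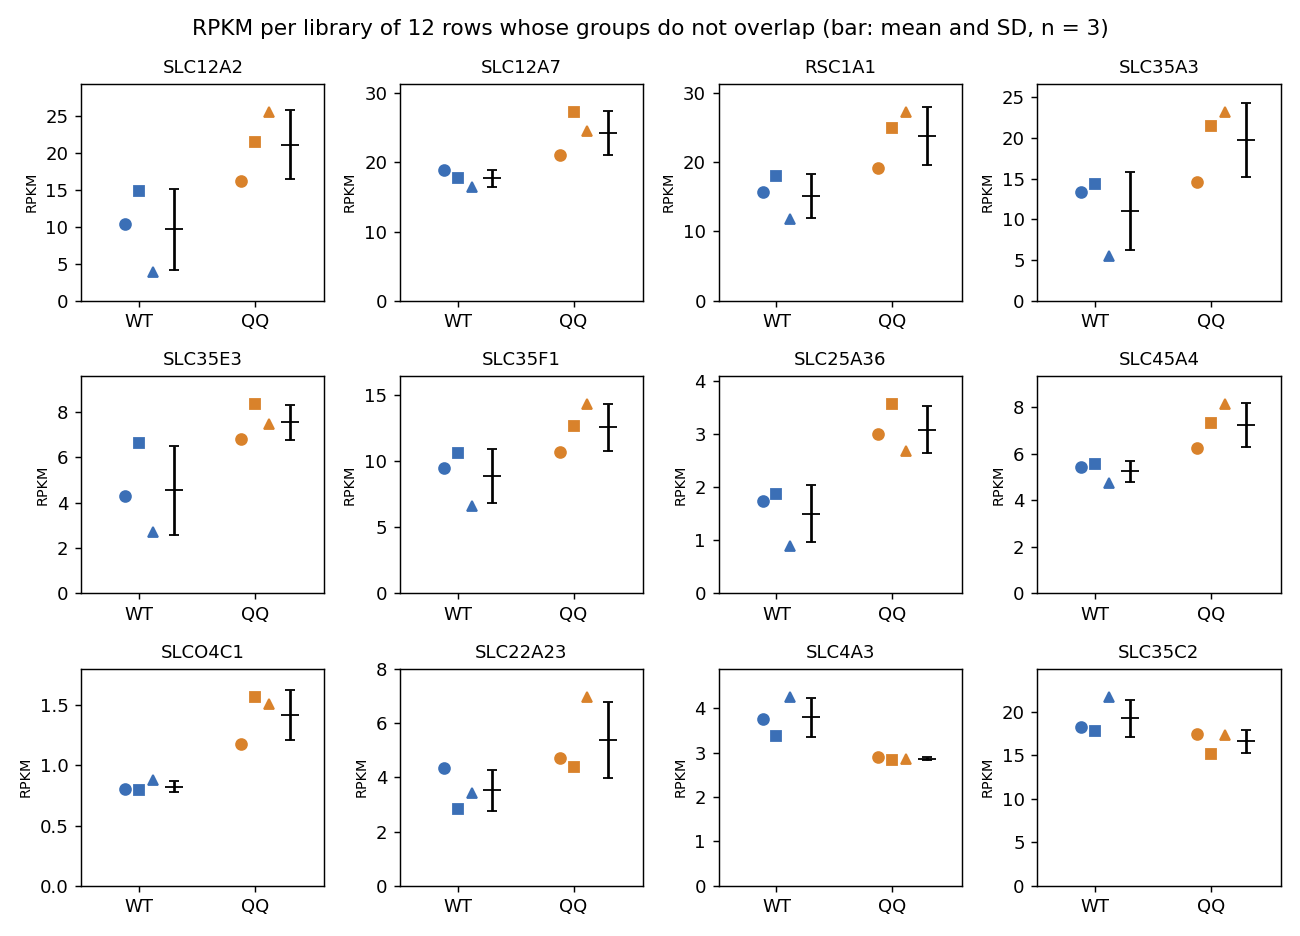
RPKM per library (vertical axis, starting at 0) in WT and QQ embryos for the 12 genes with a mean of at least 1 RPKM that were named for separate groups, with circles, squares and triangles for replicates 1, 2 and 3 and black bars for mean and SD (n = 3). The triangle of WT replicate 3 is the lowest point in SLC12A2, SLC35A3, SLC35E3, SLC35F1, SLC25A36, RSC1A1, SLC12A7 and SLC45A4 and the highest in SLC4A3 and SLC35C2.

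Carriers of inorganic ions made up 11 rows, 4 with positive and 7 with negative log2 fold changes (median -0.14). SLC12A2, the sodium-potassium-chloride cotransporter NKCC1 that loads cells with chloride, was at 10.3, 14.8 and 3.89 RPKM in WT and 16.2, 21.5 and 25.5 RPKM in QQ libraries. All QQ libraries lay above all WT libraries and WT replicate 3 lay far below the rest. The log2 fold change was 1.04 ± 0.37 (edgeR adjusted p = 0.233), and 0.67 without WT replicate 3. SLC12A7, the potassium-chloride cotransporter KCC4 that exports chloride, had 18.9, 17.8 and 16.4 RPKM in WT and 21.0, 27.3 and 24.6 RPKM in QQ libraries. Its log2 fold change was 0.36 ± 0.14, and 0.33 without WT replicate 3. The related SLC12A9 (-0.14 ± 0.16) had overlapping groups.

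Kinases that control SLC12 cotransporters were on a list of 25 partner genes. WNK1, which sits at the top of that cascade, had 3693, 3661 and 2764 reads in WT and 4365, 4766 and 5104 reads in QQ libraries, with a log2 fold change of 0.42 ± 0.14 (edgeR adjusted p = 0.233). OXSR1, which WNK kinases activate and which phosphorylates NKCC1, had 378, 387 and 217 reads in WT and 421, 512 and 464 reads in QQ libraries (0.43 ± 0.22, and 0.20 without WT replicate 3). As for SLC12A2, WT replicate 3 was lowest in both, and it was lowest in 41.4% of all tested rows. Without that library the log2 fold change of WNK1 was 0.29. STK39, a kinase related to OXSR1, had -0.06 ± 0.17. WNK1 was named by rule and OXSR1 after its values were seen. The sodium pump, which maintains the sodium gradient, had small log2 fold changes for the subunits ATP1B1 (-0.03 ± 0.10) and ATP1B3 (-0.05 ± 0.10). TIMM13, a chaperone that guides proteins to the mitochondrial inner membrane, had -0.39 ± 0.13. Its partner TIMM8A had -0.18 ± 0.14, the related TIMM9 had -0.15 ± 0.13, and TIMM22, which inserts SLC25 carriers, had -0.26 ± 0.14. Of 21 partner genes tested, none passed edgeR with adjustment, 1 (WNK1) had an unadjusted p under 0.05 with higher values in QQ embryos and 2 (TIMM13 and VDAC2, a channel of the outer mitochondrial membrane) with lower values, against 11.0% and 9.30% of all tested rows. The median log2 fold change of the 21 was -0.051.

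SLC4A3, the chloride-bicarbonate exchanger AE3 of heart and nerve cells, had the smallest unadjusted p among rows with lower values. Its level was 3.77, 3.37 and 4.26 RPKM in WT and 2.90, 2.84 and 2.86 RPKM in QQ libraries. The QQ libraries were nearly equal and all lay below the WT libraries. The log2 fold change was -0.50 ± 0.17 (edgeR adjusted p = 0.233), and -0.39 without WT replicate 3. The cardiac marker MYL7 had -0.38 ± 0.19, while the cardiac transcription factor genes TBX5 and NKX2-5 had 0.03 ± 0.14 and 0.21 ± 0.20. The part of heart tissue in the SLC4A3 value was not tested. Among the magnesium transporters, SLC41A1 had -0.20 ± 0.20 and SLC41A3 had -0.002 ± 0.17. The anion exchanger SLC26A6 had -0.32 ± 0.19, SLC4A11 had -0.51 ± 0.49, and the iron exporter SLC40A1, the only metal transporter of the set, averaged 0.695 ± 0.254 RPKM over the WT and 0.696 ± 0.144 RPKM over the QQ libraries (SD, n = 3).

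Rows of the same gene did not give the same difference. The 2547 bp row of SLC12A4, the potassium-chloride cotransporter KCC1, averaged 19.7 ± 1.95 RPKM over the WT and 19.0 ± 2.74 RPKM over the QQ libraries (SD, n = 3), a log2 fold change of -0.15 ± 0.14. SLC12A4 row 2, of 805 bp, was at 10.7, 8.80 and 9.14 RPKM in WT and 11.7, 14.3 and 17.1 RPKM in QQ libraries, a log2 fold change of 0.49 ± 0.19. As a percent of the reads of the longest row, SLC12A4 row 2 had 16.1%, 15.9% and 14.0% in WT and 21.2%, 25.9% and 24.3% in QQ libraries. The 5440 bp row of SLC23A2, a sodium-coupled vitamin C transporter, had 9.45, 9.52 and 7.67 RPKM in WT and 9.33, 10.9 and 12.0 RPKM in QQ libraries, a log2 fold change of 0.18 ± 0.13. SLC23A2 row 2 (872 bp) and row 3 (1408 bp) had log2 fold changes of 0.88 ± 0.30 and 0.92 ± 0.35, and 0.58 each without WT replicate 3. Relative to the longest row, the reads of SLC23A2 row 2 came to 7.79%, 9.62% and 4.46% in WT and 14.0%, 12.3% and 10.2% in QQ libraries. For the 3 shorter rows every QQ library had a higher percent than every WT library. These rows were picked after their values were seen and the difference between rows was not tested.

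**Figure D4:**
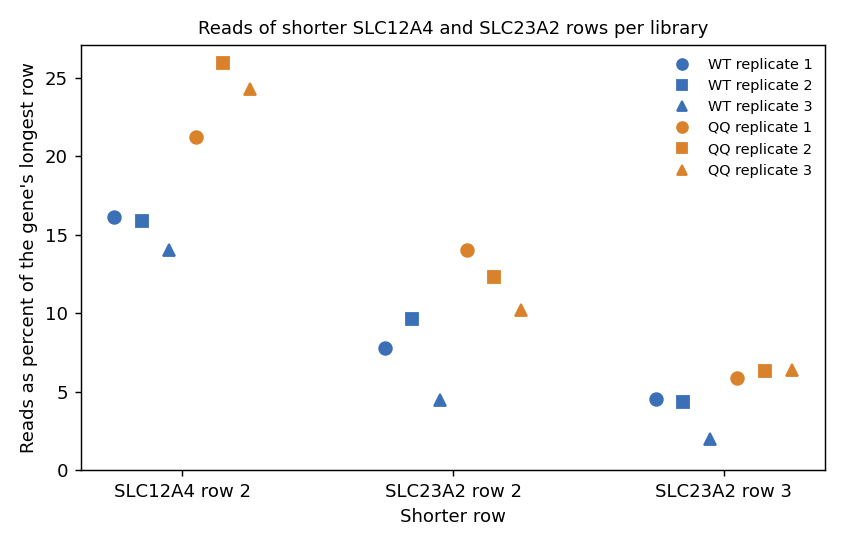
Reads of the shorter rows of SLC12A4 and SLC23A2 as a percent of the reads of the longest row of the same gene (vertical axis, starting at 0), with 1 point per library. In each of the 3 rows the orange QQ points lie above the blue WT points, from 21.2% to 25.9% against 14.0% to 16.1% for SLC12A4 row 2.

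Vitamin, choline and related transporters were led by SLC44A2, a choline transporter-like protein, which averaged 65.6 ± 5.21 RPKM over the WT and 65.2 ± 3.16 RPKM over the QQ libraries (SD, n = 3). Its groups overlapped, with a log2 fold change of -0.11 ± 0.11. The folate transporter SLC46A1 had 0.13 ± 0.23 and reads over only 14.8% of its row. SLC46A3 was low, at 0.539 RPKM.

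Carriers of organic ions and sulphate were the largest group, with 15 rows, 11 of them with positive log2 fold changes and a median of 0.46. SLC22A17, a receptor for the iron-binding protein lipocalin 2, was the most abundant, with 46.7 ± 6.74 RPKM over the WT and 43.8 ± 4.58 RPKM over the QQ libraries (SD, n = 3; log2 fold change -0.19 ± 0.14). A row matched to the sulphate transporter SLC13A1 followed, at 9.19 ± 0.464 and 11.4 ± 2.02 RPKM (0.21 ± 0.14, and 0.092 without QQ replicate 2). Reads covered 27.8% of that row on average, so its level per length comes from a part of the transcript. The organic anion transporter SLCO4C1 was at 0.800, 0.798 and 0.876 RPKM in WT and 1.18, 1.57 and 1.51 RPKM in QQ libraries, with 39 to 77 reads per library. The groups lay apart, with a log2 fold change of 0.68 ± 0.21, and 0.75 without WT replicate 3. SLCO1A2, another organic anion transporter, had 10, 14 and 13 reads in WT and 16, 39 and 54 reads in QQ libraries. Its log2 fold change was 1.48 ± 0.45 (edgeR adjusted p = 0.233), and the QQ values were spread over more than 3-fold. SLCO3A1 (0.25 ± 0.15), SLC22A23 (0.51 ± 0.24) and SLC22A9 (0.62 ± 0.29) also had separate groups, the last with 11 to 24 reads per library. Without QQ replicate 3 the value of SLC22A23 was 0.29. Groups overlapped for SLCO2B1 (-0.46 ± 0.22), SLCO5A1 (0.51 ± 0.40) and SLC22A15 (-0.10 ± 0.17). The carnitine transporter SLC22A5 had -0.04 ± 0.21, and SLC18A2, which loads monoamines into vesicles, had 0.46 ± 0.29.

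In 5 rows single embryos stood out within a genotype. SLC22A7, the organic anion transporter OAT2 of liver and kidney, was at 1.38, 0.489 and 6.74 RPKM in WT and 2.39, 0.561 and 10.3 RPKM in QQ libraries. Its highest library was 21.1 times its lowest, the widest range of the 75 rows, and both genotypes held low and high embryos. The log2 fold change of 0.48 ± 0.99 was 2.16 without WT replicate 3, -0.026 without WT replicate 2 and -1.05 without QQ replicate 3. SLC13A4, a sulphate transporter, was at 8.18, 3.85 and 10.2 RPKM in WT and 8.96, 5.11 and 19.0 RPKM in QQ libraries. SLC23A1, the other vitamin C transporter, was at 2.35, 1.19 and 2.99 RPKM in WT and 1.46, 1.66 and 5.89 RPKM in QQ libraries. In these 3 genes QQ replicate 3 was highest and WT replicate 3 was second, as in the yolk sac endoderm marker sum. WT replicate 2 was lowest in the 3 genes, while QQ replicate 2 was lowest in the marker sum. Without QQ replicate 3 the log2 fold change was -0.16 for SLC13A4 and -0.58 for SLC23A1, against 0.46 ± 0.47 and 0.34 ± 0.53 with all libraries. SLC13A5, a citrate transporter, was at 1.71, 0.955 and 0.714 RPKM in WT and 0.791, 1.95 and 7.51 RPKM in QQ libraries, so that QQ replicate 3 was highest and WT replicate 3 was lowest, as for SLC2A2. Its log2 fold change of 1.49 ± 0.70 was 0.19 without QQ replicate 3.

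The endoderm marker APOB was likewise high in QQ replicate 3 alone, with 285 reads there, 23 and 15 reads in the other QQ libraries and 4 to 8 in the WT libraries. AFP had 1150, 182 and 3540 reads in WT and 1474, 331 and 7768 reads in QQ libraries, so WT replicate 3 was second as for SLC22A7. Not all endoderm markers did this. ALB had 13, 12 and 14 reads in WT and 17, 12 and 11 reads in QQ libraries. CUBN was highest in QQ replicate 2 and APOA4 in WT replicate 3, both with few reads. The other listed markers were highest in QQ replicate 3, but FOXA2 was there only 1.26 times its lowest library. A positive log2 fold change was found for 10 of 11 endoderm markers tested (median 0.54). The part of endoderm tissue in the values of the 5 carriers was not tested. In all, the highest library was at least 4 times the lowest in 11 of the 75 rows (14.7%), against 7.47% of all tested rows, and in 10 of those 11 the highest library was QQ replicate 3. The 5 rows were picked after their values were seen.

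**Figure D5:**
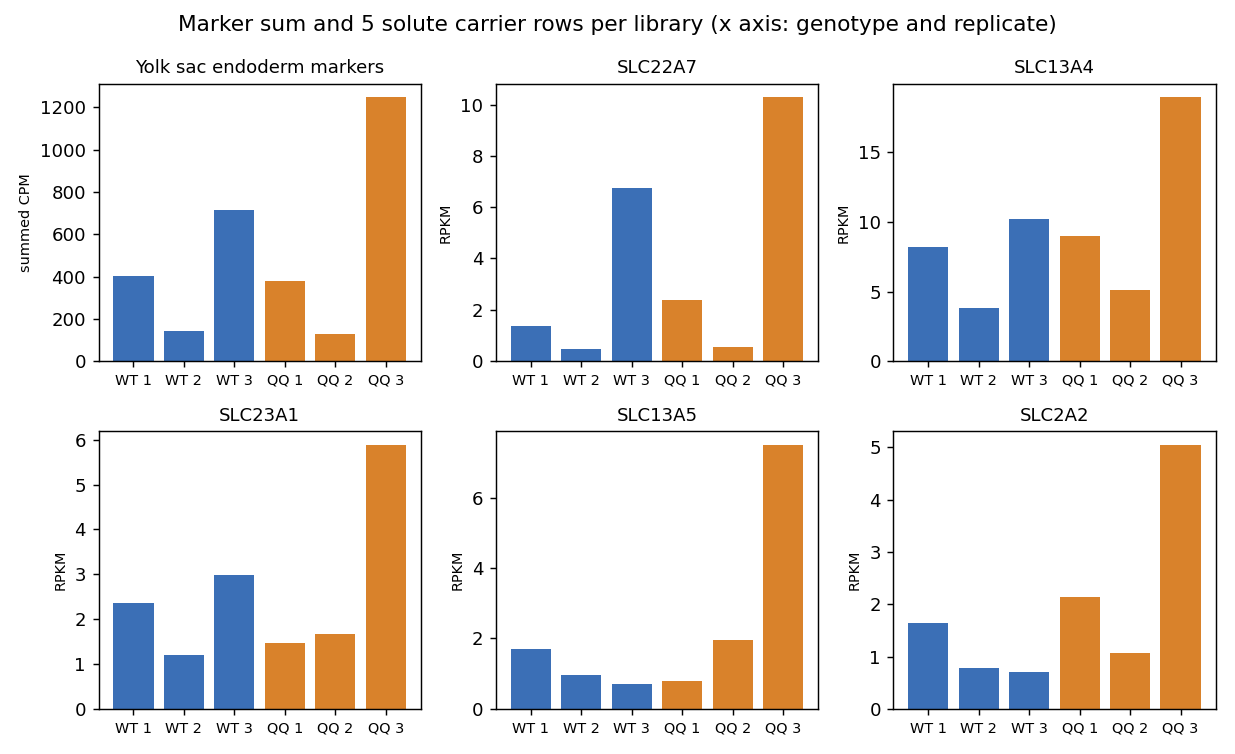
Bars show the summed CPM of the yolk sac endoderm markers (first panel) and the RPKM of SLC22A7, SLC13A4, SLC23A1, SLC13A5 and SLC2A2 in each library (horizontal axis: genotype and replicate, blue for WT and orange for QQ). QQ replicate 3 has the tallest bar in every panel, and WT replicate 3 the second tallest in the first 4 panels but the shortest in SLC13A5 and SLC2A2.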

How the data were processed

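RNA of 3 WT and 3 QQ embryos was made into TruSeq libraries, per the labels' protocols. The submitters' processing notes name the build Sscrofa10.2. Which aligner and counter were used, and whether strand was, is not given in the sources used here. Per the file headers, the deposited table gives each transcript's length and, for every library, a count of uniquely mapped reads, a coverage in percent of the length, and an RPKM value. The authors' RPKM equals the deposited count scaled to length and library total (relative gap at most 1.29e-07). A dash was read as 0, and counts add up to the header totals in all 6 libraries.

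Counts of all rows were tested with edgeR 4.0.16 (R 4.3.3): TMM factors from 0.933 to 1.06, default filter (minimum count 10, minimum total 15), quasi-likelihood fit, Benjamini-Hochberg adjustment over 13957 rows, threshold 0.05. The standard error is the log2 fold change divided by the square root of F. DESeq2 1.42.0 and limma 3.58.1 were alternatives. CPM values and edgeR log2 fold changes use the TMM factors, and RPKM values do not. A log2 fold change can therefore differ from the ratio of the RPKM means beside it. In a test on simulated counts of those 13957 rows, where 200 were altered, edgeR found 100% of 4-fold, 73.1% of 2-fold and 11.9% of 1.5-fold changes, beside 12 false calls. The altered rows were drawn only from rows above a set mean read count. The simulation held no library that stands apart over many rows, as WT replicate 3 does. These shares therefore do not carry over to rows with few reads or to these libraries. All pairs of libraries differed beyond counting noise (chi-square per degree of freedom at least 8.03).

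Solute carrier symbols were read from the deposited descriptions; where a pig KEGG gene also gave a symbol (53 rows), it was the same. Other symbols came from pig protein accessions (6858 rows) or KEGG genes (2122 rows) through Sscrofa11.1 tables, or for 37 rows of the listed partners and markers from descriptions. Of the 25 partner genes 22 had a row.

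The members and lists were chosen with earlier results of these data known. Named genes were the 2 most abundant members of each group of at least 3; in each direction at most 10 members whose groups do not overlap and whose mean reaches 1 RPKM, by unadjusted p (of a gene with several rows, only the row with the most reads counted); the rows nearest the 100-read limit; the 2 partner genes with the smallest unadjusted p; and SLC2A1, SLC2A2, SLC2A3, SLC3A2, SLC25A38 and SLC40A1. The others were chosen after their values were seen. Figures used matplotlib 3.10.9. Values of 2 members and 1 partner gene are not reported here, though the counts include them.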

Additional observations from a re-analysis of the deposited data

How the results depend on the processing

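Called rows numbered 0 in each direction in every setting tried but 1: limma on log2(RPKM + 0.5) with array weights, which down-weights libraries that stand apart, called 8 solute carrier rows higher (10.7%, against 7.73% of all tested rows) and 0 lower. They were SLC12A2, SLC12A7, RSC1A1, SLC25A36, SLC35E3, SLCO1A2, SLCO4C1 and SLC23A2 row 2, with limma adjusted p from 0.0345 to 0.0404. That fit used RPKM without TMM factors, as did limma at each pseudocount, and the cause of the calls was not tested. Rows with an unadjusted p under 0.05 and higher values numbered 21 with array weights and 7 among rows with at least 500 reads, where fewer rows are counted. Leaving out 1 library gave 5 to 14. Rows with lower values numbered 0 with limma at each pseudocount, 5 with quantile normalization and 5 with array weights, and leaving out 1 library gave 1 to 6. The median log2 fold change was 0.0083 for rows with a mean of at least 2 RPKM, 0.19 with limma at a pseudocount of 0.1, 0.010 with quantile normalization, 0.058 with 1 row per gene and 0.0002 with at least 500 reads, and leaving out 1 library gave 0.038 to 0.14. Rows with separate groups numbered 20 to 29 higher and 3 to 9 lower with 1 library left out, a setting added after the data were seen, against 21.2% to 33.0% and 10.8% to 16.1% of all tested rows.

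Of 665 values of 42 named rows (39 genes) under the alternatives, 631 kept direction with an adjusted p above the threshold, 2 kept direction with no adjusted p from DESeq2 (SLC22A9 and SLC25A48), 8 are the calls with array weights, and 24 changed sign. The sign changed for SLC15A4 (-0.0001 with no filter, -0.048 with quantile normalization, -0.064 to 0.054 with 1 library left out), for SLC2A5 (-0.0020 with no filter, -0.22 with array weights, -0.15 to 0.22 with 1 library left out) and for SLC40A1 (0.017, 0.039 and 0.0082 with limma at pseudocounts of 0.5, 0.1 and 1, 0.33 with array weights, -0.38 to 0.18 with 1 library left out). It also changed for SLC25A33 (0.055) and SLC3A2 (0.044) with array weights and SLC44A2 (0.010) with quantile normalization. With 1 library left out, SLC13A4 ran from -0.16 to 0.81, SLC22A7 from -1.05 to 2.16 and SLC23A1 from -0.58 to 0.67. With the replicate number as a block, edgeR gave 10 rows with higher and 4 with lower values at an unadjusted p under 0.05, called 0, and put the median at 0.10. The numbers did not pair the libraries: deviations of same-numbered libraries correlated at -0.19, 0.21 and -0.056, and 2 of 6 samples correlated best with their own number. Depth limits the rows near the 100-read bound: SLC25A48 and SLC22A9 had 8 to 28 reads per library.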

Other observations

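Solute carriers whose deposited description uses another name, such as monocarboxylate or phosphate transporter, were not among the 75 rows. There were 125 such rows with a solute carrier symbol and at least 100 reads. At an unadjusted p under 0.05 in edgeR, 15 of them (12.0%) had higher and 6 (4.80%) had lower values in QQ embryos, against 11.0% and 9.30% of all tested rows. Their median log2 fold change was -0.018, and 0 of them passed the adjusted threshold in edgeR. The 4 with the highest mean level were the mitochondrial phosphate carrier SLC25A3, the lactate transporters SLC16A1 and SLC16A3, and the citrate carrier SLC25A1. SLC25A3 was at 732, 735 and 781 RPKM in WT and 706, 644 and 630 RPKM in QQ libraries, with separate groups and a log2 fold change of -0.28 ± 0.12 (edgeR adjusted p = 0.235). Its level was close to that of SLC2A3, at rank 118 against 116 of all rows. SLC16A1 was at 145, 155 and 79.1 RPKM in WT and 157, 191 and 178 RPKM in QQ libraries (0.38 ± 0.20, and 0.15 without WT replicate 3, its lowest library). SLC16A3, which exports lactate from glycolytic cells, was at 162, 103 and 122 RPKM in WT and 159, 119 and 92.7 RPKM in QQ libraries (-0.15 ± 0.23).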
